A study of Mus musculus with 8 samples.

Results

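Potassium channels are membrane proteins that let potassium leave or enter a cell and so set its resting voltage and shape its action potentials. The genes named *Kcn* in the mouse encode the pore-forming subunits of these channels and many of the auxiliary subunits that travel with them. Voltage-gated (Kv) channels open on depolarization, calcium- and sodium-activated channels open as these ions accumulate in the cell, inward rectifiers hold the resting voltage, and two-pore domain channels carry the background leak. In the newborn brain this set of genes is still maturing, as neurons move from slow, broad spikes to fast ones.

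The genes were chosen by symbol, as protein-coding *Kcn* genes with a subfamily letter and a number and with at least 10 reads in at least 4 of the 8 libraries aligned to the B genome. *Kcnj10*, *Kcnj13* and *Kcnj16* were left out by this rule. The choice gave 77 genes, out of 90 such symbols before the count minimum and out of 16532 genes of any kind that met the same minimum. RNA-seq had been performed on whole brains of newborn (postnatal day 1) female B × C pups, whose mothers were C57BL/6J (B) and fathers CAST/EiJ (C). The 4 control pups came from mothers given 0 ppm CdCl2 in drinking water before and during pregnancy, and the 4 exposed pups from mothers given 50 ppm over the same period. Each pup came from a different litter, all 8 were hybrids of the same cross, and the brains were pulverized before a small part of the tissue was taken for RNA. In such bulk RNA, fewer cells of a type and less RNA per cell cannot be told apart.

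Total counts lay between 22916434 and 30708087 reads per library, so that the 3 reads taken as the floor corresponded to 0.098 to 0.132 CPM (reads per 1000000 counted reads, with library sizes normalized by the TMM method). Summed markers of neurons lay between 4415.1 and 5224 CPM, whereas liver markers stayed at or below 1.18 CPM and skeletal muscle markers at or below 9.44 CPM, as in brain tissue. The brains were not alike in their regional markers. Markers of hindbrain and spinal cord, a list of 14 patterning and neuron subtype genes of which 3 were at 0 in every library, summed to 0.683, 7.07, 51.9 and 61.7 CPM in control replicates 1 to 4 and to 184, 83.4, 52.2 and 71.8 CPM in exposed replicates 1 to 4. Control replicates 1 and 2 thus had low levels of these markers. The channel, partner and marker results most affected by these 2 brains are given below also without them. Many of the markers are *Hox* genes, whose rise the paper attributes to maternal exposure. Tissue content and expression per cell cannot be told apart here. The marker level, used below as a covariate, itself tended to be higher at 50 ppm, so a fit with it cannot separate the marker level from dose.

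Across the 77 genes the data showed levels that were close at the 2 doses. None of the 77 passed the test at an adjusted p under 0.05 (edgeR quasi-likelihood test, Benjamini-Hochberg adjustment over 23113 genes), with the lowest adjusted p at 0.999. DESeq2 and limma-voom also called 0 of 77. Over the 16532 genes with the same count minimum, 4 (0.0242%) passed at the adjusted threshold. At an unadjusted p under 0.05 edgeR and DESeq2 each called 4 of 77 and limma-voom 3, beside 593 of the 16532 genes (3.59%) by edgeR. The median log2 fold change of the 77 genes, 50 ppm over 0 ppm, was 0.02, beside -0.01 over the 16532 genes. Of the 77 genes 46 (59.7%) had a log2 fold change above 0, beside 47.2% of the 16532. Summed over the family, the channels took 2416.6 ± 111 CPM at 0 ppm and 2448.8 ± 48.8 CPM at 50 ppm (mean ± SD, n = 4 each), and the individual sums overlapped, since the controls ranged from 2281.8 to 2523.5 CPM and the exposed brains from 2402 to 2516.9 CPM.

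The precision behind this result differed between genes. For 61 of the 77 genes the 95% interval of the fold change lay within 1.5-fold in both directions, and for 73 it held 0 on the log2 scale. The median standard error was 0.13 on the log2 scale. It was small for abundant genes, such as *Kcnd2*, whose interval ran from -0.15 to 0.20, and large for genes near the count minimum, such as *Kcng4* (chosen as an example after its values were seen), whose interval ran from -0.84 to 1.15. A difference of the size of the smaller effects was therefore not detectable for the rare members at this depth and number of brains.

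**Figure D1:**
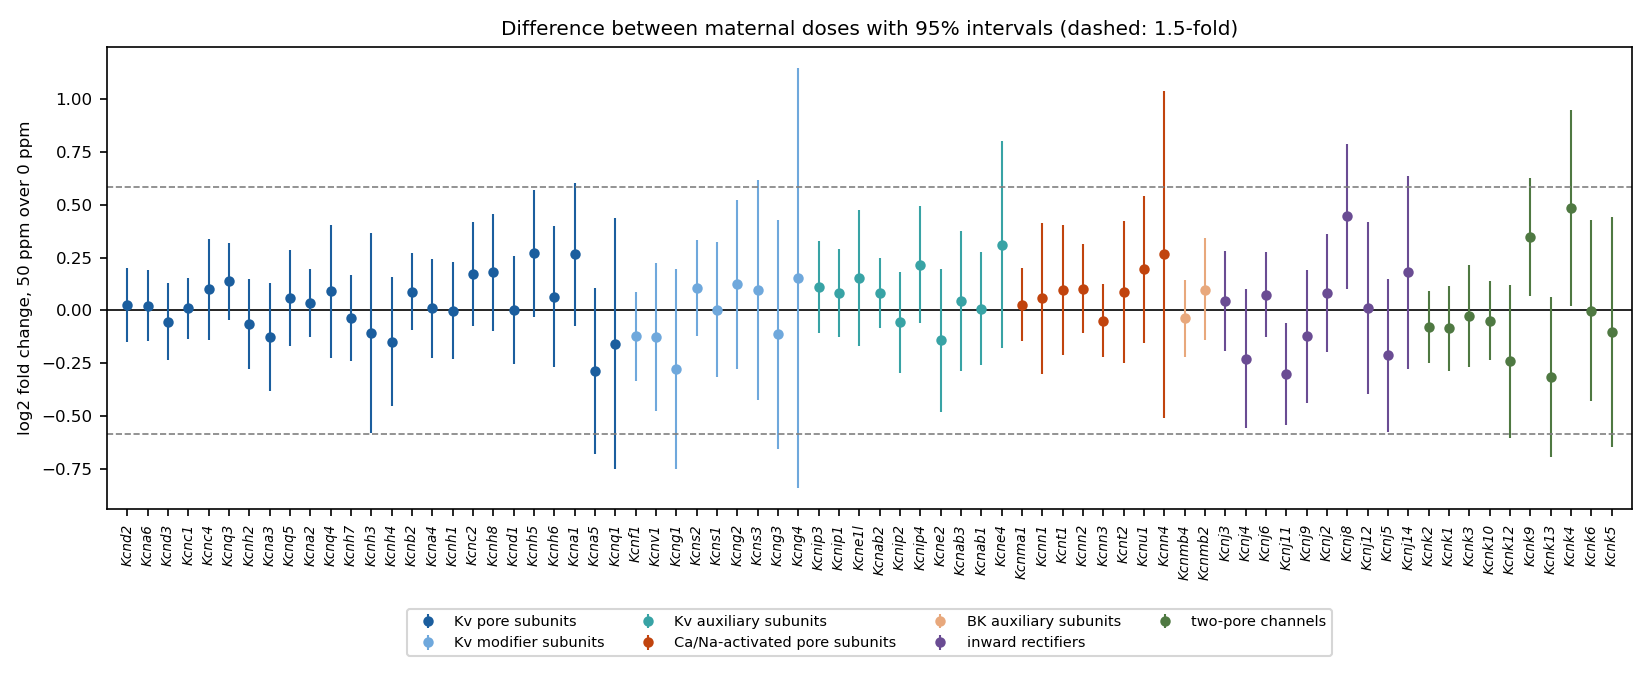
Log2 fold change of 74 of the 77 potassium channel genes, 50 ppm over 0 ppm (points, edgeR), with its 95% interval (vertical lines), coloured by class and ordered within a class from the highest to the lowest level per exon length. Dashed lines mark 1.5-fold, and 58 of the 74 intervals lie between them.

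Pore-forming subunits of voltage-gated channels were the largest class, with 28 genes, and supplied 50.1% of the family's summed level per exon length. *Kcnd2*, which carries the transient A-type current of dendrites, was the highest gene of the whole family at 31.7 CPM per kb of exon. It measured 157, 138, 179 and 173 CPM in the 4 control brains and 154, 162, 159 and 183 CPM in the 4 exposed brains. The groups overlapped, and the log2 fold change was 0.03 (95% interval -0.15 to 0.20). *Kcnq3* encodes a subunit of the M-current, which restrains repetitive firing and is an early regulator of excitability in the newborn brain. At 10.4 CPM per kb, it measured 170, 124, 137 and 154 CPM in the controls against 155, 152, 160 and 175 CPM in the exposed brains. The groups overlapped, and the log2 fold change was 0.14 (interval -0.04 to 0.32).

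Within the Kv pore class the remaining levels followed the subfamilies. *Kcna6*, at 18.1 CPM per kb, was the highest *Kcna* gene, although 39.6% of its exon length lies opposite exons of a gene on the other strand, so that its count is uncertain without the strand setting. *Kcna2*, a main axonal channel of the adult brain, stood at 4.61 CPM per kb, and *Kcna1*, its usual partner at the sides of nodes of Ranvier, at 1.22 CPM per kb. *Kcna1* measured 5.36, 5.95, 4.54 and 5.30 CPM in the controls and 5.96, 6.74, 7.81 and 4.81 CPM in the exposed brains, so that the lowest exposed brain lay within the controls (log2 fold change 0.26, interval -0.07 to 0.60). *Kcnc1*, which allows fast spiking, was nearly constant, with 107 ± 7.67 CPM at 0 ppm and 107 ± 1.82 CPM at 50 ppm (SD, n = 4 each). *Kcnh2*, which encodes the ERG channel, was the highest *Kcnh* gene at 8.16 CPM per kb, with 40.4 ± 6.25 against 38.6 ± 2.46 CPM (SD, n = 4 each). Without control replicates 1 and 2 its unadjusted p was under 0.05, as described further on. Of the 28 genes 17 had a log2 fold change above 0 and the class median was 0.01. The smallest unadjusted p belonged to *Kcnh5*, an ether-a-go-go channel gene, which measured 5.19 to 6.29 CPM in the controls and 5.69 to 8.04 CPM in the exposed brains (log2 fold change 0.27, interval -0.03 to 0.57).

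**Figure D2:**
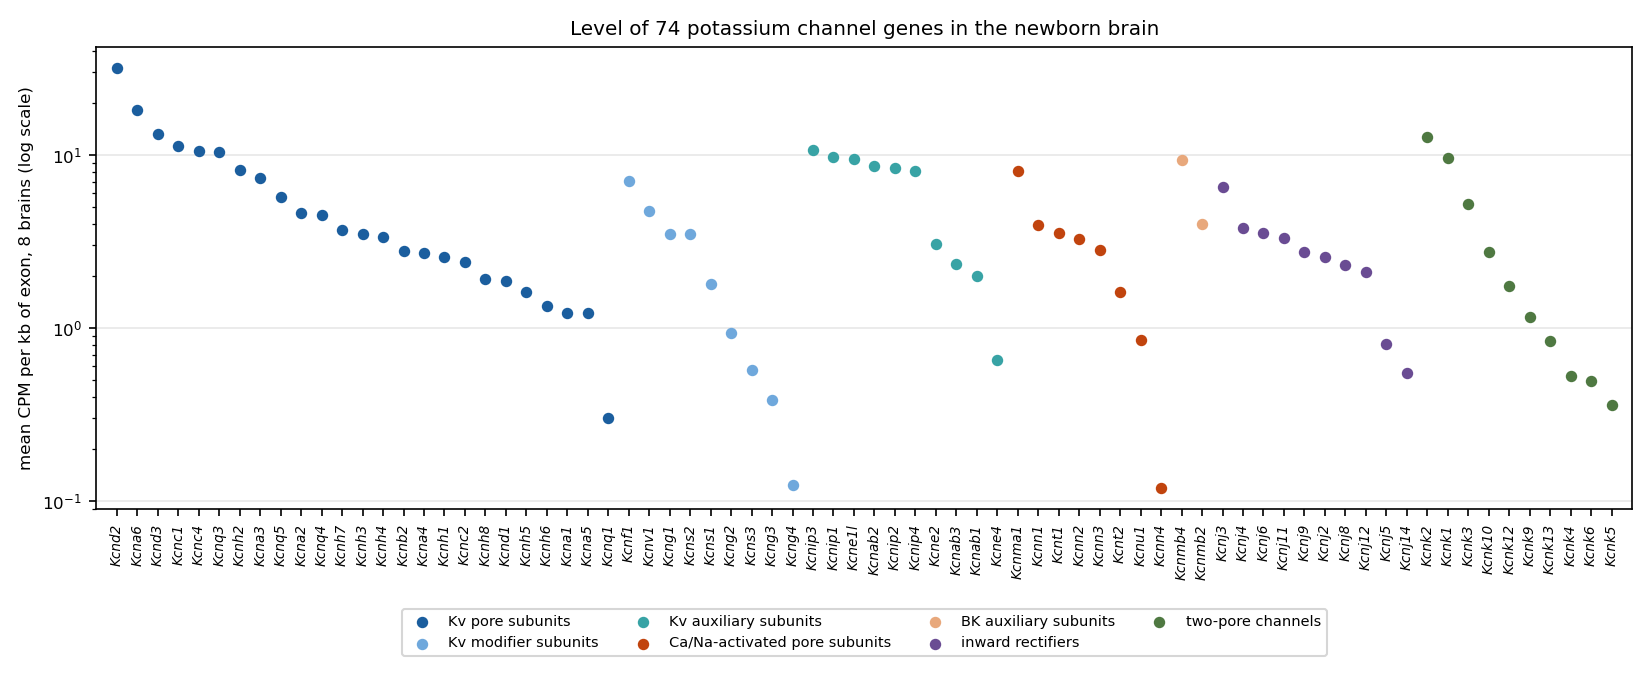
Mean level of 74 of the 77 genes over all 8 brains, in CPM per kb of exon on a log axis, by class. *Kcnd2* is highest at 31.7 CPM per kb, 8 of the 74 lie above 10 and 14 below 1.

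Modifier subunits (*Kcnf*, *Kcng*, *Kcns* and *Kcnv*) form no channel alone and change the properties of other Kv channels. There were 9, with a median log2 fold change of 0.00 and a median standard error of 0.19, the widest of the 7 classes. *Kcnf1* was the highest at 7.06 CPM per kb, with 35.3 ± 4.69 CPM at 0 ppm and 32.4 ± 2.87 CPM at 50 ppm (SD, n = 4 each). *Kcns2*, at 3.49 CPM per kb, had 18.8 ± 0.628 and 20.2 ± 3.03 CPM. *Kcnv1* and *Kcng1* varied mostly among the controls and are described further on.

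Auxiliary subunits of Kv channels numbered 10, and 8 of them had a log2 fold change above 0, with a class median of 0.08. The calcium-binding KChIP proteins, encoded by the *Kcnip* genes, bring *Kcnd* channels to the surface. *Kcnip3* was the highest of the class at 10.6 CPM per kb, with 36.0 ± 3.46 CPM at 0 ppm and 38.9 ± 5.78 CPM at 50 ppm (SD, n = 4 each). *Kcnip1* measured 45.4, 56.8, 68.8 and 62.8 CPM in the controls and 61.5, 63.0, 60.2 and 63.0 CPM in the exposed brains. The exposed brains agreed closely, and the spread of the controls covered them. *Kcnip4* measured 26.0 to 28.5 CPM in the controls and 25.5, 27.8, 28.5 and 43.9 CPM in the exposed brains, and its log2 fold change of 0.22 was 0.01 without exposed replicate 4, whose level was far above the others. *Kcnab2*, a cytoplasmic beta subunit of *Kcna* channels, had 46.7 ± 2.43 and 49.4 ± 3.78 CPM (SD, n = 4 each). *Kcne1l*, a single-span subunit gene on the X chromosome, had 13.8 ± 3.60 and 15.4 ± 1.83 CPM, and *Kcne4*, another of that family, was low at 1.55 ± 0.288 and 1.93 ± 0.483 CPM.

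Calcium- and sodium-activated pore subunits numbered 8, of which 7 had a log2 fold change above 0, with a median of 0.09. *Kcnma1*, the single pore gene of the large-conductance BK channel, led at 8.05 CPM per kb with 135 ± 9.00 CPM at 0 ppm and 138 ± 16.5 CPM at 50 ppm (SD, n = 4 each). Its neuronal beta subunit *Kcnmb4* was at 9.30 CPM per kb, with 31.3 ± 3.04 and 30.5 ± 0.897 CPM, though 31.5% of its exon length lies opposite other genes. The other BK auxiliary gene, *Kcnmb2*, had 12 ± 1.14 and 12.9 ± 1.16 CPM. The small-conductance channel gene *Kcnn2*, which contributes to the pause after a spike, had 23.5 ± 2.32 and 25.2 ± 2.45 CPM. *Kcnn1*, of the same group, had 17.6 ± 5.04 and 18.3 ± 3.22 CPM. The sodium-activated *Kcnt1* measured 26.3, 25.0, 37.3 and 41.0 CPM in the controls and 42.2, 36.5, 29.2 and 30.4 CPM in the exposed brains, so that either dose held high and low brains (log2 fold change 0.10, interval -0.21 to 0.40). With the hindbrain and spinal cord marker level as a covariate the sign of *Kcnt1* turned, to a log2 fold change of -0.28 with an unadjusted p of 0.0404, and without control replicates 1 and 2 it was -0.18 with an unadjusted p of 0.165.

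*Kcnu1*, a gene of the BK family best known from sperm, was low, at 0.851 CPM per kb. It measured 2.97, 2.46, 3.27 and 3.18 CPM in the controls and 3.33, 3.51, 3.43 and 3.31 CPM in the exposed brains. All exposed brains lay above all controls, but the lowest of them barely so, and the fit gave a log2 fold change of 0.19 ± 0.17 (SE) that did not pass even unadjusted. Across the family 2 genes had all 4 exposed brains above the controls, *Kcnu1* and *Kcnk9*, and 1, *Kcnj11*, had all 4 below. These 2.60% and 1.30% of the family stood beside 1.06% and 0.889% of the 16532 genes.

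Inward rectifiers numbered 10, with a median log2 fold change of 0.03. The most abundant per exon length was *Kcnj3*, at 6.54 CPM per kb, which encodes a channel opened by G proteins. It had 33.6 ± 6.00 CPM at 0 ppm and 34.6 ± 2.72 CPM at 50 ppm (SD, n = 4 each), with 31.1% of its exon length opposite another gene. *Kcnj6*, its partner in neurons, had 26.3 ± 1.56 and 27.7 ± 3.13 CPM. *Kcnj4*, a strong rectifier of forebrain neurons, had 8.78 ± 1.76 and 7.50 ± 1.09 CPM.

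The pore genes of the ATP-sensitive potassium (KATP) channel gave the smallest unadjusted p-values of the family, in opposite directions. These channels close as ATP rises and so tie membrane voltage to metabolism. *Kcnj8* (ENSMUSG00000030247, GRCm38 chr6:142564837-142571614, minus strand) encodes the pore of the vascular form and marks pericytes in brain. It measured 5.02, 4.13, 6.53 and 4.22 CPM in the controls and 5.93, 7.16, 6.49 and 7.63 CPM in the exposed brains, from 109 to 204 reads per library. Control replicate 3 lay inside the exposed range, and the other controls lay below it. The log2 fold change was 0.45 ± 0.16 (SE), with an unadjusted p of 0.014 and an adjusted p of 0.999 by edgeR, and an exact permutation test (two-sided, all 70 ways to assign the dose labels) gave p = 0.0857, where the smallest possible value is 0.0286. With the hindbrain and spinal cord marker level as a covariate the log2 fold change was 0.39 and the unadjusted p 0.0923, and without control replicates 1 and 2 they were 0.33 and 0.105.

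*Kcnj11* (ENSMUSG00000096146, GRCm38 chr7:46093953-46100764, minus strand) encodes the pore of the neuronal form. It measured 12.1, 15.3, 12.5 and 13.9 CPM in the controls and 11.4, 10.5, 11.6 and 10.1 CPM in the exposed brains. Every exposed brain lay below every control. The log2 fold change was -0.30 ± 0.11 (SE), with an unadjusted p of 0.0168 and an adjusted p of 0.999 by edgeR, and an exact permutation p of 0.0286, the smallest that 4 against 4 allows. Without control replicate 2, the highest, the log2 fold change was -0.24 and the unadjusted p rose to 0.0613.

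Each KATP pore gene lies beside the gene of its sulfonylurea receptor. *Abcc9*, next to *Kcnj8*, measured 17.7, 19.4, 26.3 and 20.4 CPM in the controls and 22.0, 21.7, 28.6 and 30.6 CPM in the exposed brains (log2 fold change 0.29 ± 0.13 SE, unadjusted p = 0.0415). Without control replicates 1 and 2 the log2 fold change of *Abcc9* was 0.13 with an unadjusted p of 0.375. *Abcc8*, next to *Kcnj11*, measured 11.8, 10.5, 12.7 and 13.2 CPM against 15.4, 13.3, 13.6 and 11.6 CPM (log2 fold change 0.16 ± 0.12 SE). For the vascular pair both point estimates were above 0, whereas for the neuronal pair that of the pore was below 0 and that of the receptor above. Markers of endothelium and pericytes were a list of 8 genes, all tested. They summed to 426, 357, 431 and 393 CPM in the controls and 413, 424, 480 and 494 CPM in the exposed brains. Of these genes 1, the pericyte gene *Rgs5*, had an unadjusted p under 0.05 (log2 fold change 0.28), beside 2.29% of the 16532 genes with a higher level. All 8 had a log2 fold change above 0, beside 47.2% of the 16532 genes. Their median was 0.13, and 0.09 without control replicates 1 and 2. The control with the highest *Kcnj8* level, replicate 3, also had the highest sum, and the control with the lowest, replicate 2, the lowest sum. Across doses the order differed. Control replicate 1 had a higher sum than exposed replicates 1 and 2 but less *Kcnj8* (5.02 against 5.93 and 7.16 CPM). The part of these cells in the *Kcnj8* and *Abcc9* values was not tested.

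**Figure D3:**
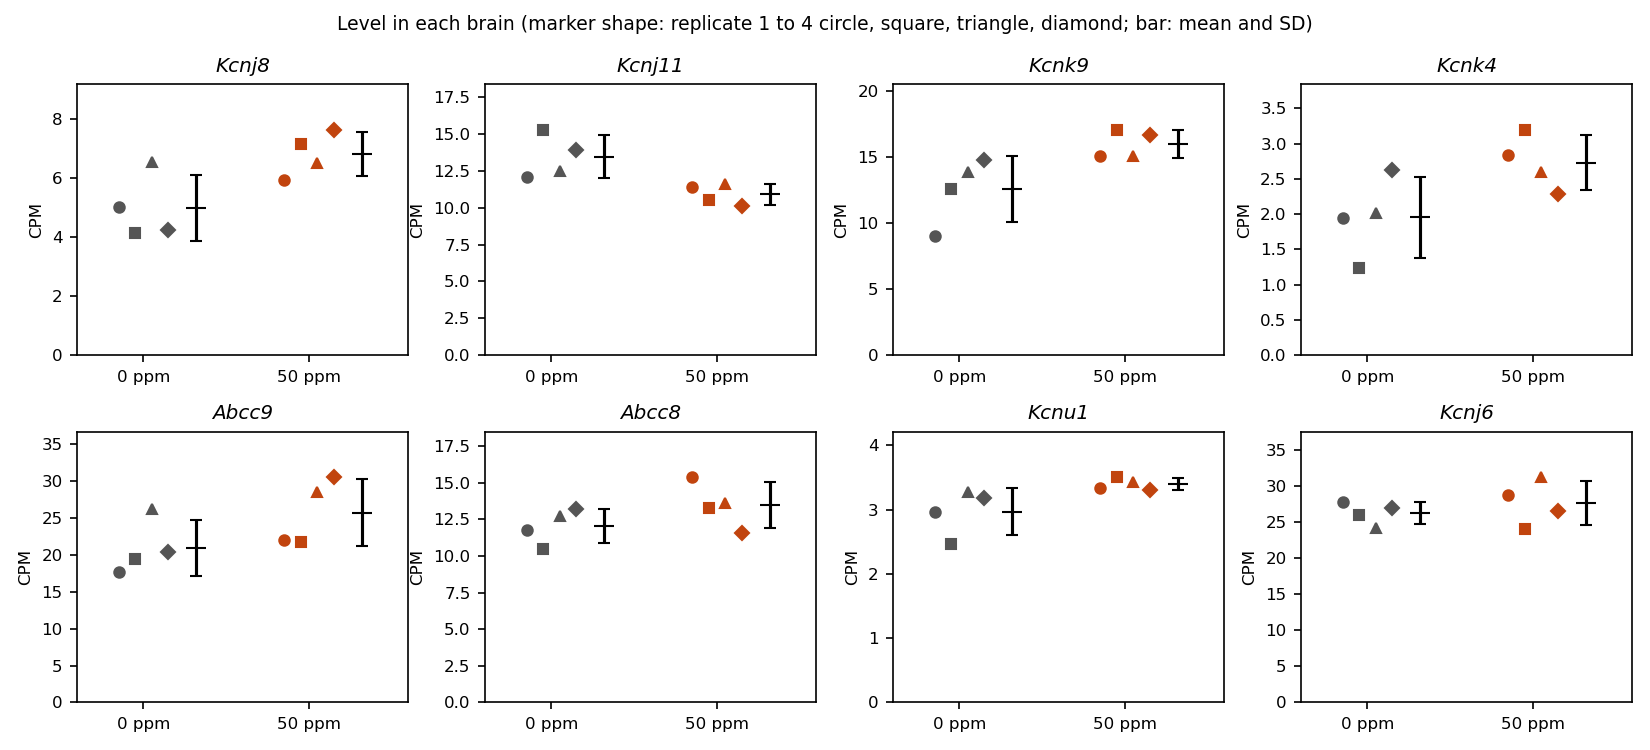
CPM in each brain at 0 ppm (grey) and 50 ppm (orange), with marker shapes for replicates 1 to 4 and a bar for the mean and SD of 4 brains, on axes from 0. *Kcnj11* is lower in all 4 exposed brains and *Kcnk9* and *Kcnu1* are higher in all 4, while *Kcnj8*, *Kcnk4*, *Abcc9*, *Abcc8* and *Kcnj6* overlap between doses.

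Two-pore domain channels numbered 10, and 8 of them had a log2 fold change below 0, with a class median of -0.06. *Kcnk2*, a channel opened by stretch, lipids and anaesthetics, was the highest at 12.6 CPM per kb, with 63.9 ± 6.73 CPM at 0 ppm and 60.5 ± 2.38 CPM at 50 ppm (SD, n = 4 each). Of its exon length 12.2% lies opposite another gene, so its count is uncertain without the strand setting. *Kcnk1*, at 9.61 CPM per kb, had 22.1 ± 1.54 and 20.9 ± 1.76 CPM. Neither difference exceeded the spread of the brains.

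The remaining 2 genes of the class, *Kcnk9* and *Kcnk4*, had log2 fold changes above 0 and unadjusted p-values under 0.05. *Kcnk9* (ENSMUSG00000036760, GRCm38 chr15:72501089-72546340, minus strand) encodes an acid-sensitive leak channel that is well known in cerebellar granule cells and brainstem neurons. It measured 9.05, 12.6, 13.9 and 14.8 CPM in the controls and 15.1, 17.1, 15.1 and 16.7 CPM in the exposed brains. The groups did not overlap (log2 fold change 0.35 ± 0.13 SE, edgeR unadjusted p = 0.0179 and adjusted p = 0.999, exact permutation p = 0.0286). The lowest controls, replicates 1 and 2, were the brains with the least hindbrain and spinal cord marker RNA. Without both, the log2 fold change of *Kcnk9* was 0.16 with an unadjusted p of 0.249. With the marker level as a covariate the log2 fold change was 0.08 with an unadjusted p of 0.6. That level also differed with dose, so the 2 cannot be told apart in this fit. Without control replicate 1 alone the log2 fold change of *Kcnk9* was 0.22 with an unadjusted p of 0.0744, and without exposed replicate 2 it was 0.32 with an unadjusted p of 0.05.

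*Kcnk4* (ENSMUSG00000024957, GRCm38 chr19:6923966-6934515, minus strand) encodes a mechanically gated leak channel. It was low, with 33 to 68 reads in the controls and 52 to 91 in the exposed brains, and 13.1% of its exon length is shared with a gene on the same strand. It measured 1.95, 1.23, 2.02 and 2.63 CPM in the controls and 2.84, 3.20, 2.60 and 2.29 CPM in the exposed brains, so that control replicate 4 and exposed replicates 3 and 4 overlapped. The log2 fold change was 0.49 ± 0.22 (SE), with an unadjusted p of 0.0407, an adjusted p of 0.999 and an exact permutation p of 0.0857. This p did not stay under 0.05 when any of 6 of the 8 libraries was left out, namely control replicates 1, 2 and 3 or exposed replicates 1, 2 and 3 (0.0508 to 0.133). It was 0.0881 with limma-voom, 0.398 with the hindbrain and spinal cord covariate and 0.322 without control replicates 1 and 2.

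In all, 3 of the 77 genes (*Kcnj8*, *Kcnk9* and *Kcnk4*) had an unadjusted p under 0.05 with a higher level at 50 ppm and 1 (*Kcnj11*) with a lower level. Over the 16532 genes these shares were 2.29% and 1.29% and together 3.59%, which corresponds to 2.76 genes of 77, whereas the 4 genes make up 5.19% of the family. When control replicates 1 and 2 were both left out, 2 genes had an unadjusted p under 0.05, *Kcnh2* and *Kcnq5* (the latter an M-current gene named for this result). Neither was among these 4. Over the 16532 genes the shares in that setting were 2.47% higher and 2.13% lower. *Kcnh2* measured 46.6 and 44.0 CPM in control replicates 3 and 4 and 36.4 to 41.7 CPM in the exposed brains. *Kcnq5* measured 36.1 and 37.9 CPM in those controls and 40.6 to 47.9 CPM in the exposed brains. In that setting the log2 fold changes of the 4 genes called in the main test kept their signs, at 0.33 for *Kcnj8*, -0.28 for *Kcnj11*, 0.16 for *Kcnk9* and 0.24 for *Kcnk4*.

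Brains of the same dose also differed in their channel genes. For 39 of the 77 genes the highest of the 8 brains was under 1.5 times the lowest, and for 10 it was over 2 times. Control replicate 1 stood apart. It was the highest of the 4 controls for 33 of the 77 genes (42.9%), beside 26.1% of the 16532 genes. *Kcng1*, a modifier gene, measured 29.7 CPM in it, against 13.5, 10.2 and 15.6 CPM in the other controls and 12 to 15.9 CPM in the exposed brains. *Kcnv1*, a second modifier gene, measured 33.0 CPM in it, against 15.1 to 21.8 CPM in the other controls and 17.9 to 23.4 CPM in the exposed brains. For both genes this 1 brain lay above all 7 others.

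*Kcnh3*, a forebrain-enriched ether-a-go-go channel gene chosen here after its values were seen, followed the same pattern with 34.9 CPM in control replicate 1, 13.2 to 17.6 CPM in the other controls and 26.5, 16.0, 16.1 and 18.5 CPM in the exposed brains. In the other direction, *Kcnip1* at 45.4 CPM and *Kcnk9* at 9.05 CPM had their lowest values of all 8 brains in control replicate 1. That brain had the least hindbrain and spinal cord marker RNA and the highest sum of 9 forebrain markers, 1095 CPM, next to 1073.1 CPM in control replicate 2 and 666 to 939 CPM in the other 6. Control replicate 2, with nearly the same forebrain sum, had 13.5 CPM of *Kcng1* and 20.2 CPM of *Kcnv1*, within the range of the rest. The part of regional content in these levels was not tested.

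**Figure D4:**
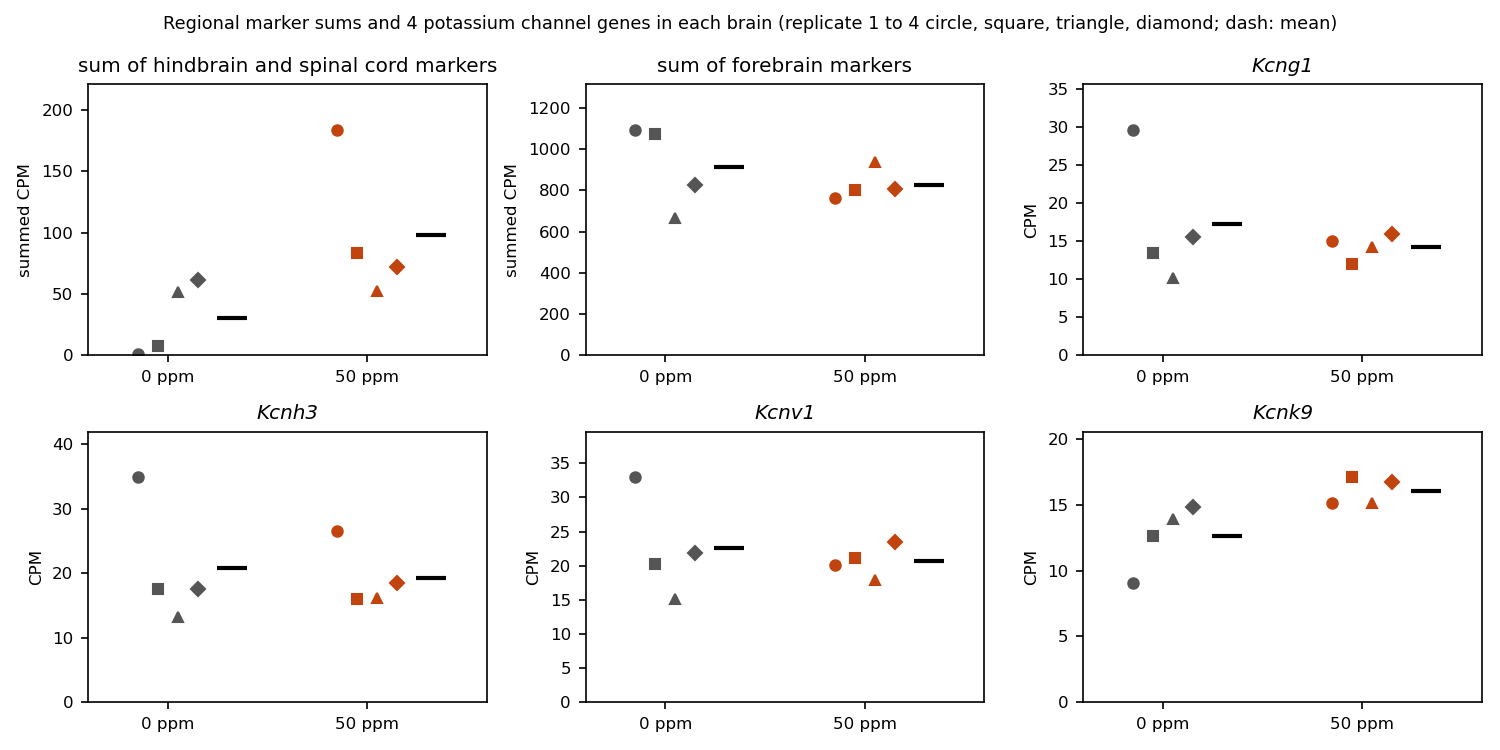
Summed CPM of hindbrain and spinal cord markers and of forebrain markers, and CPM of *Kcng1*, *Kcnh3*, *Kcnv1* and *Kcnk9*, in each brain at 0 ppm (grey) and 50 ppm (orange), with marker shapes for replicates 1 to 4 and a dash for the mean. Control replicate 1 (circle) is highest for *Kcng1*, *Kcnh3* and *Kcnv1* and lowest for *Kcnk9* and for the hindbrain and spinal cord markers.

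**Figure D5:**
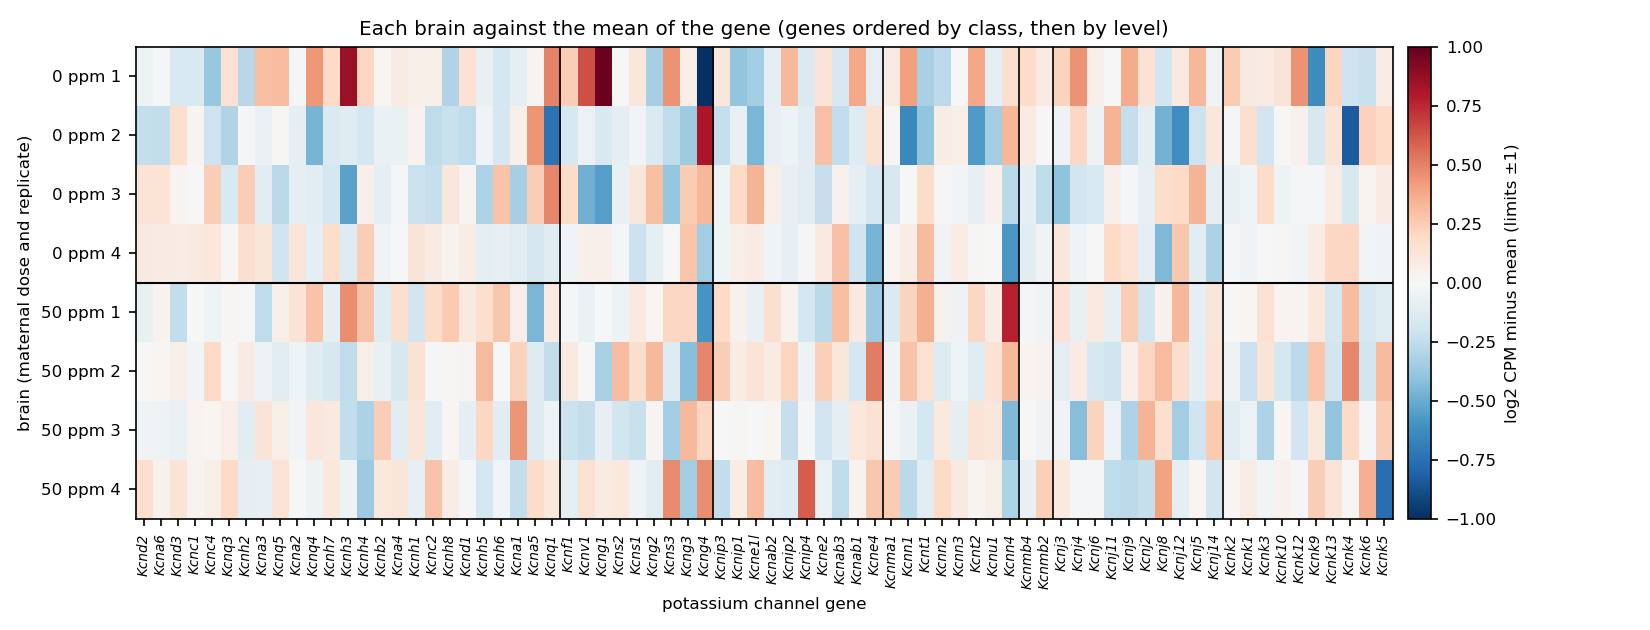
Log2 CPM of 74 of the 77 genes in each brain minus the mean of that gene over the 8 brains, with colours ending at -1 and 1, genes ordered by class and by level, and a line between the doses. No class has one colour in all 4 exposed brains and the other in all 4 controls, and *Kcng1* and *Kcnh3* are strongly red in control replicate 1.

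Genes that work with potassium channels gave a similar picture. Of 24 partner genes, which encode KATP receptors, *Kcnd* partners, axonal anchors, calmodulins and regulators, 22 were tested and 0 passed at an adjusted p under 0.05, with a median log2 fold change of 0.05. At an unadjusted p under 0.05, 2 were higher at 50 ppm, *Abcc9* and the secreted *Kcna* regulator *Lgi3* (5.33, 5.36, 11.1 and 7.86 CPM against 11.5, 11.3, 9.88 and 11.9 CPM), and 1 was lower, *Kcnrg*, a regulator of *Kcna* channels (4.58 to 5.89 against 3.09 to 4.37 CPM, with no overlap). Over the 16532 genes the shares at that threshold were 2.29% higher and 1.29% lower, and 0.889% had all exposed brains below the controls. The 2 lowest *Lgi3* values were those of control replicates 1 and 2. Without both, *Lgi3* had a log2 fold change of 0.22 with an unadjusted p of 0.187, and 1 partner gene was higher and 1 lower at that threshold, the latter again *Kcnrg* (log2 fold change -0.43, unadjusted p = 0.0382). *Dpp6* and *Dpp10*, which join *Kcnd2* at the membrane, had log2 fold changes of 0.12 and 0.14. Of 15 sodium, leak and HCN channel genes, which carry the inward currents that potassium channels oppose, 15 were tested and 0 passed after adjustment, with a median of 0.01. At an unadjusted p under 0.05, 2 were higher, beside the same 2.29% of all genes, among them *Scn1a* (log2 fold change 0.23, but 0.07 without control replicates 1 and 2). Without those replicates the list still had 1 gene higher and 1 lower at that threshold, with a median of -0.05. Over the 16532 genes the shares were then 2.47% higher and 2.13% lower. When any single library was left out, 1 gene of the list had an unadjusted p under 0.05.

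Several marker lists had larger median differences than the channel genes, although no marker gene passed after adjustment in the main edgeR test. The paper, which used DESeq2, does list the markers *Enpp6*, *Mag*, *Cnp* and *Dlx1* as differentially expressed after adjustment. At an unadjusted p under 0.05, which 2.29% of the 16532 genes met with a higher and 1.29% with a lower level, the genes higher at 50 ppm were 10 of 11 tested for hindbrain and spinal cord (median log2 fold change 1.51), 5 of 8 for astrocytes (0.42), 4 of 10 for the oligodendrocyte lineage (0.10), 3 of 7 for microglia (0.21), 3 of 8 for mature neurons (0.18), 1 of 8 for neurons (0.06) and 2 of 5 for peripheral nerve and ganglion (0.57). Lower at that threshold were 4 of 9 forebrain markers (median -0.22), 1 of 7 for immature neurons (-0.09) and 1 of 8 for mature neurons. No gene met it for choroid plexus (median -0.22), blood (-0.16), skeletal muscle (0.12), meninges (0.12) or liver (0.15). Without control replicates 1 and 2 the hindbrain and spinal cord genes higher at that threshold were 6 of 11 (median log2 fold change 0.81), the astrocyte genes 4 of 8 (0.28), the oligodendrocyte lineage genes 4 of 10 (0.25), the microglia genes 2 of 7 (0.07), the mature neuron genes 2 of 8 (0.06) and the neuron genes 0 of 8 (0.03). The forebrain markers then had 2 of 9 higher and 2 lower, with a median of 0.10 in place of -0.22, while over the 16532 genes the shares were 2.47% higher and 2.13% lower. The choroid plexus median turned from -0.22 to 0.14. Its markers summed to 1229.2 CPM in control replicate 2 and to at most 819 CPM in any other brain. Medians were then -0.395 for blood, 0.13 for skeletal muscle (1 gene lower), 0.09 for meninges and 0.14 for liver. Peripheral nerve and ganglion had 2 of 5 higher (0.48). The part of these cell types and regions in the channel levels was not tested.

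The 13 protein-coding *Kcn* symbols under the count minimum had at most 16 reads in any library, and none was at 0 in every library. *Kcnj15* and *Kcnmb3* reached 16 reads, the latter with 4, 4, 16 and 13 reads in the controls and 6, 16, 4 and 0 in the exposed brains. *Kcna10*, *Kcnk7*, *Kcnk16* and *Kcnk18*, of the rest, had 1 to 4 reads in all 8 libraries together. These 6 genes are named after their counts were seen, and a difference between doses was not detectable for them at this depth.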

How the data were processed

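Per the file headers and the paper's methods, the authors trimmed the reads, aligned them with STAR to the C57BL/6J genome (GRCm38, Ensembl) and deposited raw read counts per gene from htseq-count, 1 column per pup, without normalization. Tool versions and the strand setting of the count are not given in the sources used here, so genes that overlap an opposite-strand gene are uncertain, and reads of the hybrid that carry C alleles may align less well. The count table of the C genome was not used here because its identifiers were not paired with symbols. A few genes count in every total but are not reported singly here.

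Genes at 0 in 6 or more of the 8 libraries were dropped, following the filter of the paper. Counts were TMM-normalized and tested with edgeR 4.0.16 (quasi-likelihood, treatment only, R 4.3.3), with Benjamini-Hochberg adjustment over 23113 genes and a threshold of 0.05. P-values in the text that are not called adjusted or exact are unadjusted edgeR values. Intervals are 95% t intervals of the fit for the difference between doses. They do not give the range of single brains. Single genes were also tested with exact permutation of log2 CPM (prior count 2). Exon lengths came from the GENCODE annotation of GRCm38. Named genes had an unadjusted p under 0.05 or no overlap, or were the 2 highest or the 2 with the smallest p in a class, the highest of a subfamily, or on a list of 14 well-known genes. Alternatives were DESeq2 1.42.0, its size factors, other count filters, limma-voom (limma 3.58.1), a hindbrain and spinal cord covariate, and libraries left out. The code was tested on simulated data. Members, lists and tests were chosen with earlier results of these data known, and leaving out control replicates 1 and 2 together was chosen after seeing the data.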

Additional observations from a re-analysis of the deposited data

Results flagged for a closer look

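In 7 of 170 groups of 4 brains, 1 brain lay far from the other 3 by Dixon's criterion. The same brains recur in every group, so the groups are not independent and the number was not set against a chance rate. Among the controls the highest brain was at 21.9 CPM for *Kcnab1* (next 15.7), 36.0 CPM for *Kcnip2* (next 27.7), 15.3 CPM for *Kcnj2* (next 13.1), 4.68 CPM for *Kcnk12* (next 3.5) and 166 CPM for the sum of the two-pore domain channels (next 154). In each of these 5 the brain was control replicate 1. Among the exposed brains, *Kcnip4* had 43.9 CPM in replicate 4 (next 28.5), and *Kcnk10* had 21.4 CPM in replicate 2, below the next value of 24.5.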

How the results depend on the processing

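No potassium channel gene passed an adjusted p under 0.05 in any of the 15 alternatives (lowest adjusted p 0.383, without control replicate 3). The family median stayed between 0.00 and 0.02 under other tools and filters and between -0.01 and 0.05 as each library was left out. The number of channel genes with an unadjusted p under 0.05, 4 in the main test, ranged from 2 to 7 as each library was left out and was 2 without control replicates 1 and 2. With the hindbrain and spinal cord covariate it was 4, of which 1 was shared with the main test. Over all genes, the 4 calls after adjustment became 18 with DESeq2, 52 with no filter, 2 under a minimum of 10 reads in 4 libraries, 1 with limma-voom, 1 with the covariate, 7 without control replicates 1 and 2, and 2 to 20 as each library was left out. Partner genes with an unadjusted p under 0.05, 3 in the main test, were 1 with the covariate and 1 to 4 as each library was left out. For sodium and HCN channel genes the number fell from 2 to 1 with limma-voom and to 1 without each library in turn. The BK auxiliary median moved from 0.03 to 0.17 with the covariate and 0.13 without control replicates 1 and 2. The two-pore domain median moved from -0.06 to -0.006 without those replicates, and the inward rectifier median ranged from -0.061 to 0.076 as each library was left out. The cause of these shifts was not tested. Of 36 named genes, 17 changed sign in at least 1 alternative, none of them among the 4 with an unadjusted p under 0.05. No paired analysis was possible because each pup came from a different litter and the labels pair no pups between doses. The labels give no replicate numbers, so those used here follow the sample order within each dose. With 4 brains per dose and whole-brain RNA, the data limit only differences of the size the intervals show, and changes within a region or cell type were not measured.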
